A study of Drosophila melanogaster with 2 samples.

Results

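The 9 genes examined here for binding of ADD1 belong to the histone H3 lysine 9 (H3K9) methylation system of Drosophila melanogaster. They are Su(var)3-9, egg, wde, G9a, Su(var)2-10, Kdm4A, Kdm4B, JIL-1 and Pof, taken by name from a list of writers, erasers and counteracting factors, and all 9 were found among the 13945 protein-coding genes on 6 chromosome arms. Binding was measured by chromatin immunoprecipitation and sequencing in whole embryos of 0 to 24 h, males and females together, from a transgenic line in which GFP is fused to the C terminus of ADD1. An antibody against GFP was used on sonicated chromatin of 200 to 800 bp. The series has 1 group with 2 biological replicates of this single line and no second genotype, and its control was not analysed here. Neither the promoter of the fusion nor the state of the untagged ADD1 gene is stated in the labels. In whole embryos, strong binding in few cells and weak binding in many cells cannot be told apart. A peak list holds no expression values, so the stage was not checked against marker genes.

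The 4 deposited peak lists were 1 for each replicate, 1 joint list called on both alignments, and an IDR list of the 7944 peaks kept by the authors at a threshold of irreproducible discovery rate, a measure of how well ranks repeat between replicates. Each peak has a summit, the position of its highest signal, and a signal, the authors' own value, whose scale was not given, so peaks are compared by rank within a list, with rank 1 the strongest. A promoter summit is a summit within 500 bp of any annotated start of the gene. The number of reads is unknown. The replicate lists and the joint list hold 30000 peaks each, so their weakest peaks reach far below the IDR list, whose peaks are the 7944 strongest of the joint list.

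H3K9 methylation marks heterochromatin, where it is bound by HP1 proteins, and silences transposons and repeats. ADD1 is one of a pair of fly proteins that correspond to parts of mammalian ATRX, a chromatin protein whose ADD domain reads H3K9 methylation. Su(var)3-9 methylates H3K9 at pericentric heterochromatin, egg encodes the fly SETDB1, and G9a is a further H3K9 methyltransferase. The protein of wde is the partner of egg and corresponds to mammalian ATF7IP. Su(var)2-10 is a SUMO ligase that connects nuclear piRNA silencing to egg and wde. Kdm4A and Kdm4B encode Jumonji demethylases that act on methylated H3K9 and H3K36, JIL-1 is a histone H3 serine kinase that limits the spread of H3K9 methylation, and Pof coats the fourth chromosome, where egg is active.

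The sequences around the summit at G9a, around the summit at the outer JIL-1 start and around the Su(var)3-9 start show what 2 bound starts and 1 start without a promoter summit hold. Each run is the + strand of Release 6 (dm6) over 201 bp, from chrX:245817-246017, chr3L:11093104-11093304 and chr3R:15263358-15263558, with the summit or, for Su(var)3-9, the start at its centre. Capitals mark CGATA, the core of the BEAF-32 site, and TATCGATA, the DREF site that contains it, on either strand.
G9a: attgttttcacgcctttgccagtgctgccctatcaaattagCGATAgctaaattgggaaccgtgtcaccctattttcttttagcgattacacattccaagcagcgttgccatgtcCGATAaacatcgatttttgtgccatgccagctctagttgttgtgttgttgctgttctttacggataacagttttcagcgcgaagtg
JIL-1: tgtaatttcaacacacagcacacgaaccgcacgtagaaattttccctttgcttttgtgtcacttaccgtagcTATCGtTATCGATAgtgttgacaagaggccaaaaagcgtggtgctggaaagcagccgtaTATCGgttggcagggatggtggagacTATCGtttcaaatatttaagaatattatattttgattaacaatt
Su(var)3-9: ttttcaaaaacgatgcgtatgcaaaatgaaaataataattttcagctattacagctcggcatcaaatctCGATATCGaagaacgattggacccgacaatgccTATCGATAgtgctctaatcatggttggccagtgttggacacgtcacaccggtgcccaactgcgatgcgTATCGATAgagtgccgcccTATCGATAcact
The G9a window holds CGATA at 2 places and no TATCGATA. The JIL-1 window holds 1 TATCGATA and 5 CGATA in all, those inside TATCGATA included. The Su(var)3-9 window holds TATCGATA 3 times and CGATA 8 times, and no list had a summit within 500 bp of that start.

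A promoter summit was present at 4 of the 9 genes in the IDR list, namely wde, G9a, JIL-1 and Pof. The same call was made for 26.1% of all protein-coding genes. The same 4 genes had one in the joint list (background 37.9%), in replicate 1 (38.0%) and in replicate 2 (44.7%). A summit inside the gene was found for wde, JIL-1 and Kdm4B in each of the 4 lists, against 17.3% of coding genes in the IDR list, 28.7% in the joint list, 28.4% in replicate 1 and 34.2% in replicate 2. Counting summits inside the gene or within 5 kb gave 5 genes (wde, G9a, JIL-1, Pof and Kdm4B) in the IDR list, the joint list and replicate 1, with backgrounds of 52.9%, 65.2% and 66.7%. Replicate 2 gave 7 genes, with Su(var)3-9 and egg added, against a background of 72.2%. Su(var)2-10 and Kdm4A had no summit within 5 kb in any list. With 1 group and 9 genes chosen by name, no test was made of these counts, and 9 genes are too few to read any of the 3 counts as more than its background share. In replicate 2 the promoter, inside and 5 kb counts of 4, 3 and 7 stood beside 44.7%, 34.2% and 72.2% of coding genes.

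**Figure D1:**
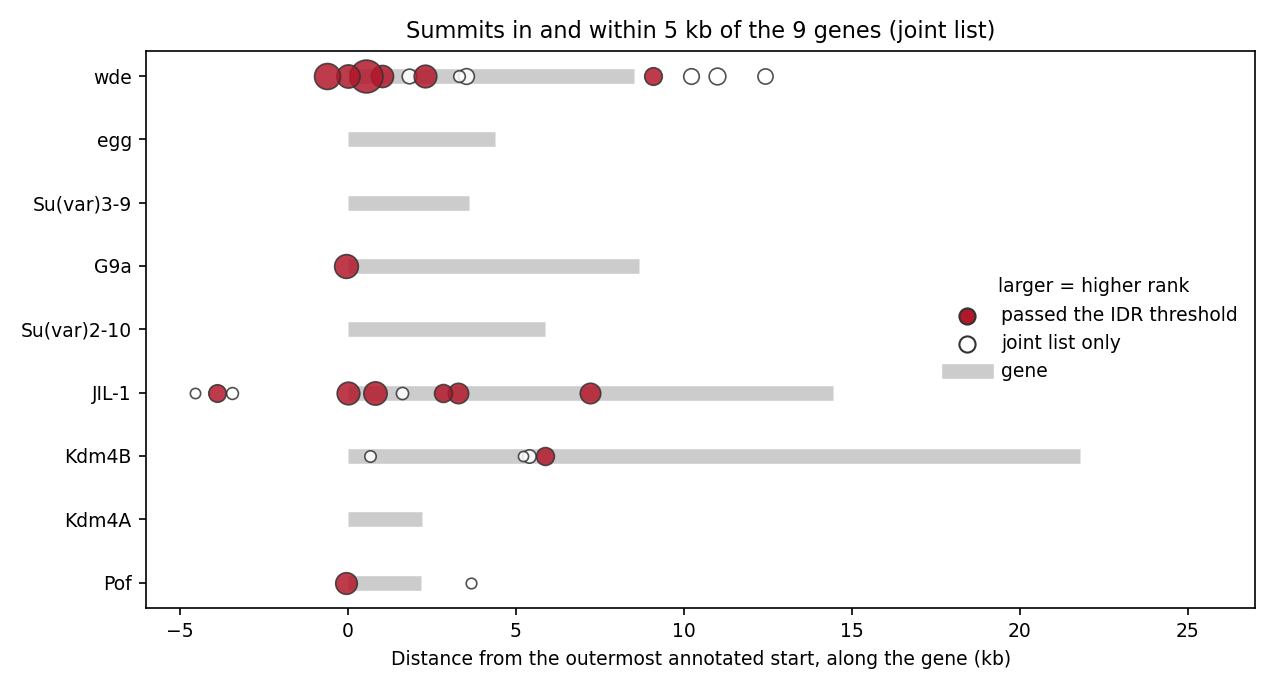
Summits of the joint list in and within 5 kb of the 9 genes. The x axis gives the distance from the outermost start along the gene in kb, grey bars are the genes, filled circles passed the IDR threshold, open circles did not, and larger circles have a stronger rank. Of the IDR summits 5 of wde lie within 3 kb of its outermost start, the 4 inside JIL-1 are spread over its first 7200 bp, and Su(var)3-9, egg, Su(var)2-10 and Kdm4A have no circle.

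The gene of the egg partner, wde (FBgn0027499, 2R, 10800420 to 10808938, minus strand), was the most densely occupied of the 9. It had 6 IDR summits in or within 5 kb of the gene, and 5 of them lay within 3 kb of its outermost start. At least 5 summits in that window were found for 0.538% of coding genes, 75 in number. The strongest lay in an intron 539 bp downstream of the outermost start (peak 10808203 to 10808591, signal 2208) and ranked 66 in the IDR list. Its signal was 1337 in replicate 1 (rank 74) and 901 in replicate 2 (rank 64), so both replicates placed it among their 100 strongest. The distance of 539 bp is just outside the promoter limit, and this summit is therefore not among the promoter summits counted above.

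Both annotated starts of wde, each used by 1 transcript, had a summit of their own. The summit at the outermost start lay 9 bp inside the gene, in the 5' UTR (signal 424, rank 1799), and had a signal of 206 in replicate 1 (rank 2381) and of 221 in replicate 2 (rank 1399). The inner start had one 97 bp upstream of it, in an intron of the longer transcript (signal 385, rank 2129), with a signal of 201 in replicate 1 (rank 2468) and 193 in replicate 2 (rank 1822). For both summits the rank was stronger in replicate 2 than in replicate 1, and the joint rank lay between them. A further intron summit 1024 bp from the outermost start ranked 2463, with ranks of 4209 in replicate 1 and 1148 in replicate 2. On the upstream side a summit 628 bp away ranked 784 (564 in replicate 1 and 1586 in replicate 2). It lay inside CG12935, whose nearest start is only 113 bp from it and which faces away from wde with 459 bp between their starts. It is nevertheless among the 5 summits counted within 3 kb of the outermost wde start. The sixth summit lay downstream of the gene at rank 7272, near the lower end of the IDR list.

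JIL-1 (FBgn0020412, 3L, 11078752 to 11093193, minus strand) also had 6 IDR summits, 4 of them inside the gene, which was also the count for wde. At least 4 summits inside the gene were found for 2.81% of coding genes. This limit is the count of these genes themselves, and the share covers coding genes of all lengths. Both genes are long, at 14.4 kb and 8.52 kb, longer than 89.9% and 84.2% of coding genes when genes of equal length are included, and the counts come to 0.277 summits per kb in JIL-1 and 0.470 in wde. Within 3 kb of the outermost start JIL-1 had 3 summits, a number reached by 6.50% of coding genes.

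The outer JIL-1 start, used by 2 transcripts, had a summit 11 bp upstream (peak 11093097 to 11093351, signal 388, rank 2104), whose sequence is printed above. Its signal was 246 in replicate 1 (rank 1804) and 135 in replicate 2 (rank 3321). A summit of similar rank, 1765, lay in the 5' UTR 820 bp inside the gene and 517 bp upstream of the inner start (signal 429), with a signal of 218 in replicate 1 (rank 2185) and 222 in replicate 2 (rank 1396). Its position relative to the inner start was 526 bp in replicate 1 and 482 bp in replicate 2, so replicate 2 alone counted it as a promoter summit. The inner start had no IDR summit within 500 bp, and the joint list held one 282 bp away at rank 19600. The order of the pair differed between the replicates: the outer start had the stronger summit in replicate 1 and the 5' UTR in replicate 2.

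The 3 intron summits of JIL-1 ranked 3726, 3856 and 6769 in the IDR list. The first ranked 5417 in replicate 1 and 2747 in replicate 2, and the second 6188 and 2540. The third went the other way, at 4236 in replicate 1 and 15844 in replicate 2. All 3 were therefore present in both lists, but which intron summit was strongest was not the same in the replicates. The remaining summit, 3911 bp upstream of the gene, ranked 7449 and was closest to a start of CG33947.

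**Figure D2:**
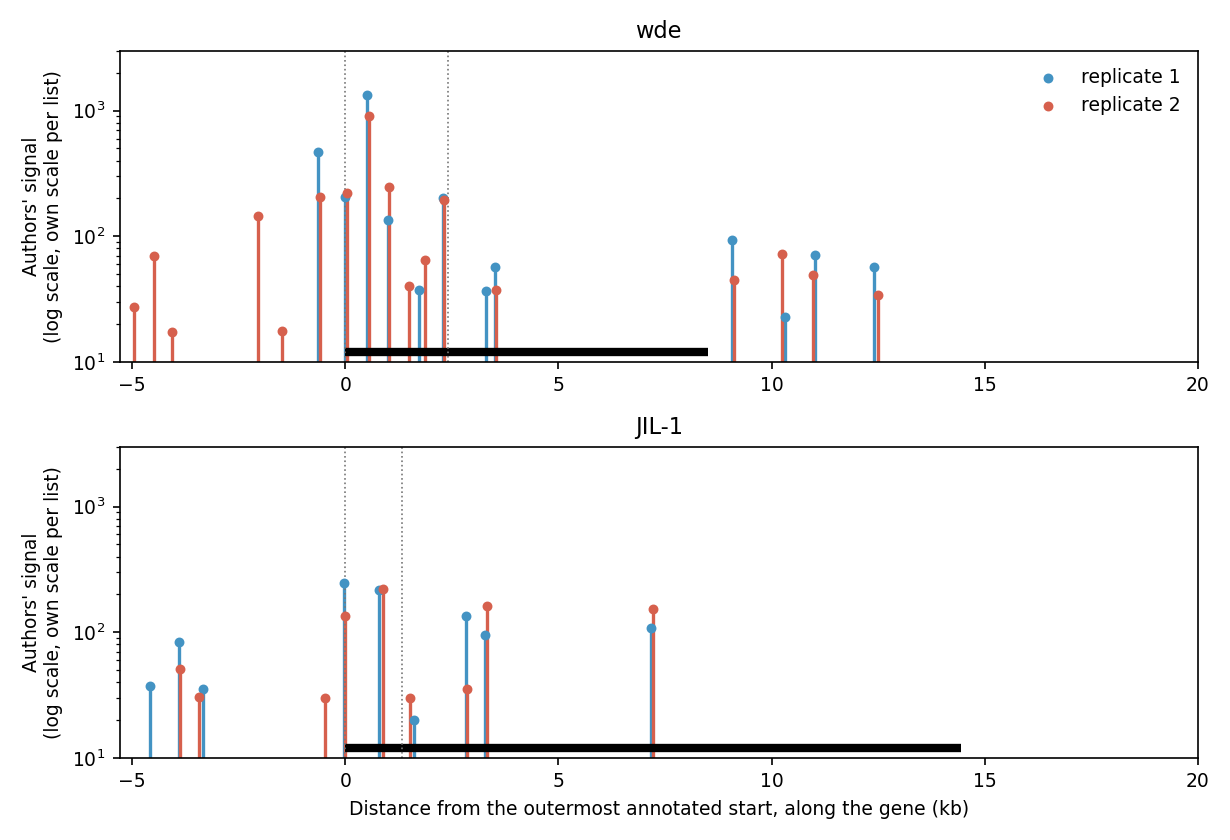
Authors' signal of each summit at wde and JIL-1 in replicate 1 (blue) and replicate 2 (red), on a log axis, against the distance from the outermost start in kb. The black bar is the gene, dotted lines are annotated starts, and signal scales are separate for each list. The wde intron summit at 539 bp stands above all others in both replicates (1337 and 901), and no JIL-1 summit exceeds 246.

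G9a (FBgn0040372, X, 245978 to 254650, plus strand), the gene of a methyltransferase, had a single summit within 5 kb in every list. In the IDR list the peak ran from 245806 to 246017 with a signal of 468 and ranked 1527. The signal was 221 in replicate 1 (rank 2134) and 249 in replicate 2 (rank 1116), and the replicate summits lay 9 and 4 bp from the IDR summit. G9a and CG3038 face away from each other with 122 bp between their starts, and the IDR summit was 61 bp from each. The replicate summits lay nearer to CG3038, at 52 bp against 70 bp from G9a in replicate 1 and 57 bp against 65 bp in replicate 2, so the call for G9a under a nearest-start rule rests on a tie in the IDR list. No list placed a summit inside the 8.67 kb of the gene.

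Pof (FBgn0035047, 2R, 24669397 to 24671577, plus strand) likewise had its IDR summit between facing starts. The peak ran from 24669176 to 24669485 with a signal of 323 and ranked 2780, and the signal was 173 in replicate 1 (rank 3063) and 157 in replicate 2 (rank 2635). The summit was 66 bp from the Pof start and 1 bp from that of CG33228. In replicate 2 the distances were 67 and 0 bp, while in replicate 1 the summit was nearer to Pof, at 26 against 41 bp. When each IDR summit was counted only for its nearest start, Pof lost its call and 3 genes with a promoter summit were left, against 21.7% of coding genes. Inside the Pof gene no list held a summit.

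The other methyltransferase genes, Su(var)3-9 and egg, had no summit in the IDR list, the joint list or replicate 1, neither inside nor within 5 kb. Su(var)3-9 (FBgn0263755, 3R, 15259864 to 15263458, minus strand) shares its only start with eIF2gamma, which encodes a subunit of a translation initiation factor, and the start of Set lies 94 bp away facing the other way. Replicate 2 had a summit 573 bp from the Su(var)3-9 start and 479 bp from that of Set, at rank 24029 of 30000. The flanking IDR summits were near starts of Hsc70-4 (rank 5644) and of the insulator gene Cp190 (rank 813), the latter 11830 bp from Su(var)3-9, and left a gap of 31.6 kb. Adjacent IDR summits lay 4.02 kb apart at the median and 15.4 kb at the upper quartile. Of these gaps 86.1% were no longer than the one around Su(var)3-9. A gene without an IDR summit inside or within 5 kb can lie only in a long gap, so this share follows largely from the call. By distance from the start, 67.0% of coding genes had an IDR summit at least as close as Su(var)3-9.

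The gap around egg (FBgn0086908, 2R, 24775534 to 24779901, minus strand) was 44.7 kb, and 90.4% of gaps between IDR summits were no longer. Here too the share follows largely from the absence of an IDR summit within 5 kb of the gene. By distance from the start, 70.7% of coding genes had an IDR summit at least as close as egg. Its flanking summits lay in Usp15-31 (rank 1461) and 152 bp from a start of asRNA:CR43257 (rank 148), 26584 and 13754 bp from the gene, respectively. Replicate 2 had a summit 3590 bp upstream of egg at rank 7305, which lay 9 bp from a start of TyrRS-m, the mitochondrial tyrosyl-tRNA synthetase gene, and 64 bp from one of CG3589. Replicate 1 had its nearest summit 12217 bp away.

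Su(var)2-10 (FBgn0003612, 2R, 9116122 to 9122000, plus strand), the SUMO ligase gene, has 14 transcripts from 2 starts and had no summit within 5 kb in any list. The nearest IDR summit lay just past that limit, 5353 bp upstream, and 30 bp from the start of tsu, whose product is a core protein of the exon junction complex. This tsu summit ranked 1275 in the IDR list, 1261 in replicate 1 and 1466 in replicate 2.

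The pair of H3K9 and H3K36 demethylase genes differed in length and in the presence of a summit. Kdm4A (FBgn0033233, 2R, 7922775 to 7924988, minus strand) is 2.21 kb long and lay in a gap of 40.3 kb between IDR summits, in CG30377 (rank 4389) and CG14764 (rank 7207). Its nearest IDR summit was 12174 bp from its start, and the nearest of replicate 2 was 8409 bp away. Kdm4B (FBgn0053182, 2R, 13176553 to 13198337, minus strand) is 21.8 kb long and had 1 IDR summit, in an intron 2380 bp upstream of a start that it shares with CG17724 and seq. This peak (13192393 to 13192544, signal 149) ranked 6879, and its signal was 89.3 in replicate 1 (rank 6637) and 52.6 in replicate 2 (rank 10626). The joint list and replicate 2 added a weak intron summit near the outermost Kdm4B start, at 671 bp (rank 21835) and 664 bp (rank 17191), and replicate 1 did not.

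**Figure D3:**
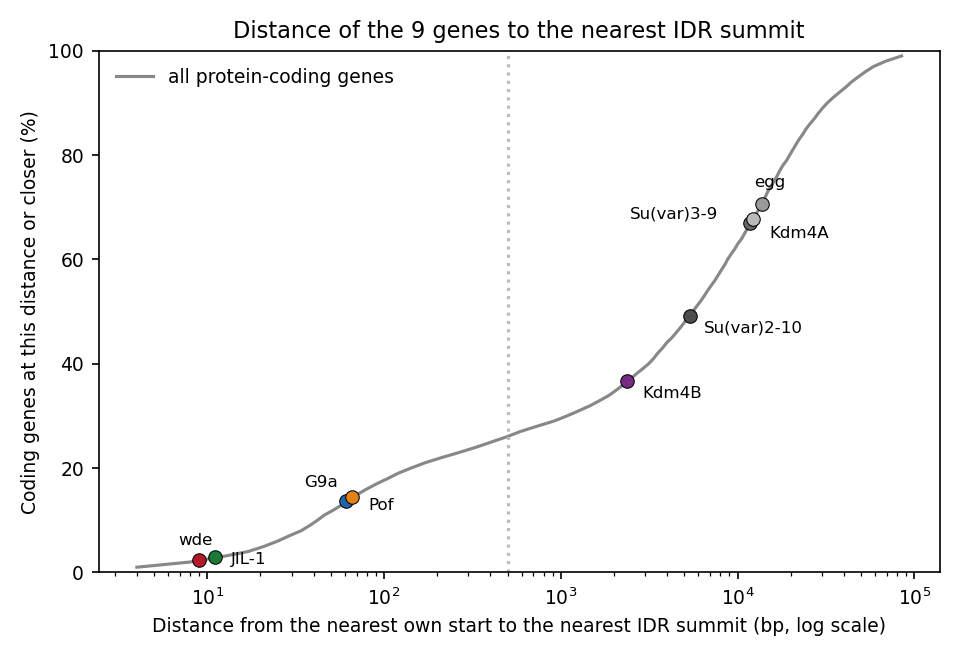
Distance from the nearest start of each gene to the nearest IDR summit (x, bp, log axis) and the share of protein-coding genes at that distance or closer (y, %). The grey line is all protein-coding genes and the dotted line marks 500 bp. The wde, JIL-1, G9a and Pof points lie at 9 to 66 bp, and the other 5 genes at 2380 to 13754 bp.

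The 4 genes with a promoter summit had it close to the start, and none of the 9 had its nearest IDR summit between 66 and 2380 bp. The nearest IDR summit was 9 bp from a start of wde, 11 bp from one of JIL-1, 61 bp from that of G9a and 66 bp from that of Pof, and the next gene was Kdm4B at 2380 bp. A summit as close as that of Pof was found at 14.4% of coding genes, and one as close as that of wde at 2.45%. At the far end, 70.7% of coding genes had a summit at least as close as egg. Promoter limits of 200 bp and 1000 bp called the same 4 genes as 500 bp did, against 21.7%, 29.5% and 26.1% of coding genes.

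Facing starts were compared because 3 of the 4 bound promoters had one. Of the 9 genes 5 have a coding start on the other strand that faces away within 1000 bp, and wde, G9a and Pof among them had a promoter summit while Su(var)3-9 and Kdm4B (513 bp from ValRS) had none. Of all coding genes of this kind 36.1% had a promoter summit. Of the 4 genes without a facing start JIL-1 had one, and egg, Su(var)2-10 and Kdm4A had none, against 20.4% of the other coding genes. The counts are too few to be read against these shares.

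All of the 15 IDR summits at these genes had a summit within 200 bp in both replicate lists, against 96.4% of the whole IDR list. The largest offset at the 15 was 40 bp, and the share of all IDR summits within that distance was not counted. The strongest IDR promoter summit had a mean replicate rank of 1890 ± 694 (SD, n = 2) for wde, 1625 ± 720 for G9a, 2563 ± 1073 for JIL-1 and 2849 ± 303 for Pof. The replicate ranks of JIL-1 overlapped those of the other 3 genes, and those of Pof lay past those of wde and G9a. The larger of the 2 replicate ranks was 1.16 to 3.74 times the smaller, with a median of 1.84, against a median of 1.51 over all matched IDR summits. The rank was stronger in replicate 1 for 6 summits and in replicate 2 for 9. Of the 15 summits 11 were among the stronger 3972 of the IDR list, which are 50% of it. The highest −log10 q-value of the list, 4.13, was carried by 11 of the 15 and shared by 6739 of the 7944 IDR peaks. Peak widths ran from 115 to 440 bp with a median of 255 bp, and the median of the IDR list was 231 bp. An intron of the named gene held 7 of the 15 summits, and the share in introns over all IDR summits was not counted.

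**Figure D4:**
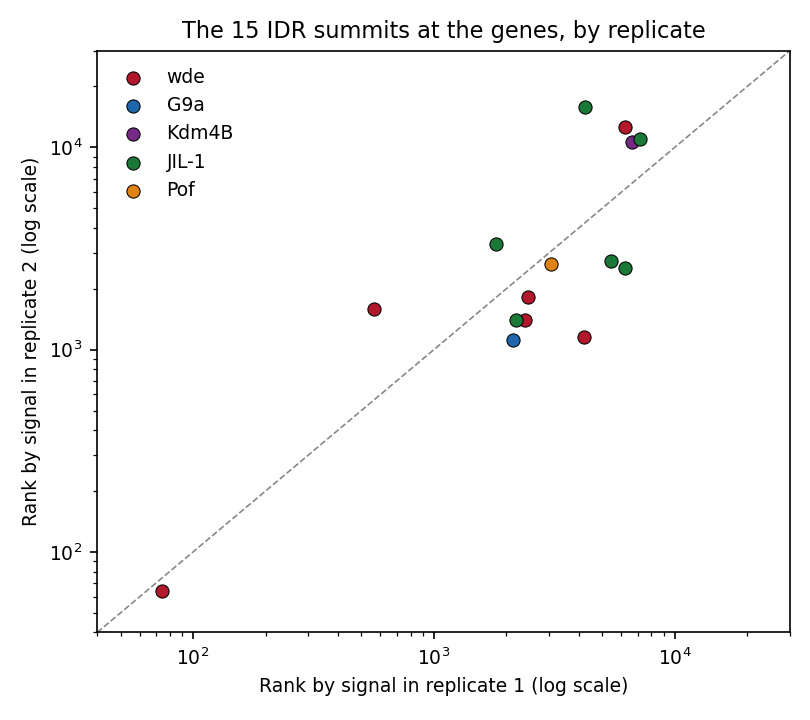
Rank by signal of the 15 IDR summits in replicate 1 (x) and replicate 2 (y), both on log axes, coloured by gene. The dashed line marks equal ranks and low ranks are strong. The wde intron summit sits alone at ranks 74 and 64, and the JIL-1 summit farthest from the line has ranks 4236 and 15844.

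Binding words were searched on both strands within 100 bp of each summit. CGATA was present at 5 of the 15 summits, against 31.8% of all IDR summits. TATCGATA was present at 1 of these 5 and at no other of the 15, against 4.24% of all IDR summits. GAGAGAG, the GAGA factor site, was present at 1, the summit by the inner wde start, against 6.60%, and TATAAA, the TATA box, at 2, both of wde, against 20.6%. GGTCACACT, the M1BP site, and AGNNGGCGC, a form of the CTCF site, were at 0 of the 15, against 2.76% and 3.54%. No word was found at the Pof summit or at the outermost wde start. CGATA is contained in TATCGATA, so these counts overlap. The median GC content of the 15 windows was 40.8%, and that of all IDR summits 42.3%.

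The same words were counted within 100 bp of the annotated starts themselves. At least 3 TATCGATA in 1 window, as at the Su(var)3-9 start, were found at 4 of 19252 distinct coding starts. They belong to Su(var)3-9 with eIF2gamma, to Set, to wts and to CDK2AP1, and of these 4 only the wts start had an IDR summit within 500 bp. The Su(var)3-9 and Set starts lie 94 bp apart, and the 3 copies at Su(var)3-9 fall in both windows, so these 2 starts are not separate cases. These starts were singled out after the values had been seen. Of the 1241 coding starts with at least 1 TATCGATA 37.3% had an IDR summit within 500 bp, and of all coding starts 25.8%. GGTCACACT occurred at starts of Kdm4A, Kdm4B and Su(var)2-10, which have no promoter summit, and at no start of the 4 genes that have one. Over all coding starts 4.42% held that word. Of the 851 coding starts with it 36.1% had an IDR summit within 500 bp, against 25.8% of all coding starts. The starts of the 9 genes are too few to be read against these shares. A word is a run of letters and not a measured site.

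Other genes of the same pathway were compared by count. Among 13 genes of HP1-type readers and their partners 3 had a promoter summit, against 26.1% of coding genes, namely ADD1 itself (rank 369, 500 bp from a start and thus at the limit), the gene of HP1a (rank 3693) and Lhr (rank 4382), which encodes an HP1 partner. In the IDR list HP1b, HP1c, rhi, HP1e, HP1D3csd, HP6, Su(var)3-7, Su(var)2-HP2, XNP and Hmr had none, and of these HP1b alone had one in the replicate lists, at ranks 22968 and 21834. Among 15 silencing cofactors 4 had one: MEP-1 (rank 867), the SUMO activating enzyme gene Uba2 (rank 1359), the SUMO gene Sumo (rank 1601) and sov (rank 3387). Among the 7944 strongest peaks of replicate 2, 7 of the 15 had one (29% of coding genes), with mael (rank 5846), Aos1 (rank 6132) and CoRest (rank 4158) added. Among those of replicate 1 the count was 4 (25.8%). Replicate 1 held a promoter summit of mael at rank 10518 and none of Aos1 or CoRest, and lwr had one in replicate 2 only, at rank 27977. No promoter summit was found in the IDR list or in either replicate at piwi, Panx, nxf2, arx, HDAC1, Mi-2 and Su(var)3-3.

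Other histone lysine methyltransferase and demethylase genes had promoter summits at 5 of 10 and 3 of 6, and partners of JIL-1 at 2 of 7, against 26.1% of coding genes. Among the methyltransferase genes Hmt4-20, which acts on H4K20, had the strongest, at rank 60 in the IDR list, 63 in replicate 1 and 59 in replicate 2. Set2, which methylates H3K36, followed at rank 1407 and had a promoter summit at rank 1621 in replicate 2 and none in replicate 1. The H3K79 methyltransferase gene gpp ranked 2227, trx 4707 and Set1 7515, and E(z), trr, ash1, NSD and Set8 had none in the IDR list. E(z) had a promoter summit in replicate 1 only, at rank 3285, and NSD in replicate 2 only, at rank 3282. The demethylase genes with a summit were Kdm3 (rank 426), which is also described as an H3K9 demethylase, Kdm2 (rank 583) and NO66 (rank 5774), and those without were Kdm5, Utx and Su(var)3-3, which is also in the list of cofactors. Kdm5 had a promoter summit in replicate 2 only, at rank 1192. In the stronger 3972 IDR peaks the methyltransferase count was 3 of 10, against 17.7% of coding genes. Of 7 genes for partners of JIL-1, Chro (rank 24), whose chromodomain protein binds JIL-1, and pzg (rank 1875) had a promoter summit, and mof, mle, msl-1, msl-2 and msl-3 did not, although replicate 2 held one of mle at rank 26916. The 4 of 9 found for the H3K9 genes lies between the shares of these lists, and no difference between lists was tested.

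**Figure D5:**
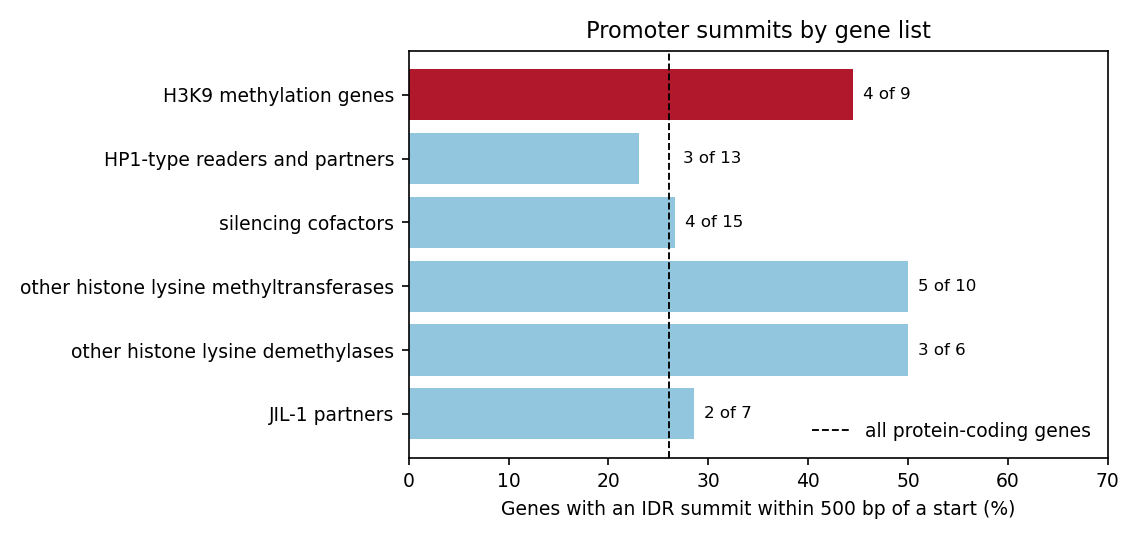
Share of genes with an IDR summit within 500 bp of a start (x, %), for the 9 H3K9 methylation genes (red) and 5 comparison lists (blue), with counts beside the bars. The dashed line is the share of all protein-coding genes, 26.1%. The shares run from 3 of 13 for HP1-type readers to 5 of 10 and 3 of 6 for other methyltransferases and demethylases, with 4 of 9 for the H3K9 genes.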

How the data were processed

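Chromatin immunoprecipitation of GFP-tagged ADD1 was analysed from deposited peak lists in narrowPeak form on dm6. Per the deposited file descriptions, the authors derived peaks from each replicate alignment and from both together, each with a further file that also underlies a control-normalised track, and the IDR list from these lists. Not given in the sources used here: aligner, peak caller and read filters. Depth is unknown. The signal per peak (column 7) is the authors' deposited value on an unstated scale. The −log10 q-value per peak is also deposited and reaches a common highest value in each list, so it was not used for ranking.

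The summit was taken from the deposited offset (column 10). Genes, starts and exons came from Ensembl release 115 (FlyBase genes, assembly BDGP6, the dm6 coordinates), and sequence from RefSeq Release 6. No peak ran past a chromosome end. All coding genes on 6 arms were counted in the same way with Python 3.11.15, pandas 2.3.3 and numpy 2.4.6, and the counting was tested on invented genes. A replicate summit matched within 200 bp. Older symbols (panx, smt3, PR-Set7 and lid) were matched through the RefSeq table. No test was made, since the design has 1 group and 2 replicates.

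The members, lists and words were chosen with earlier results of these data known. The window of 3 kb and the counts of words at starts were added after the values had been seen. The limits of 3, 4 and 5 summits per gene equal counts found at wde or JIL-1. Named genes were every member, genes with a start within 500 bp of its summit, those at flanking summits, and all members of the comparison lists. Sequences from arm 2R are not shown.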

Additional observations from a re-analysis of the deposited data

How the results depend on the processing

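Of 63 recomputed values, 54 stayed within the limits set for them (a factor of 1.5 for counts, the spread between replicates for ranks) and 9 moved. Some could not move, since the IDR peaks are the strongest of the joint list and keep their ranks there. The limit for ranks was made from the same 2 replicate ranks that it was applied to. The tally is therefore no measure of how stable the results are. The 4 genes with a promoter summit were the same in the stronger 3972 IDR peaks (17.7% of coding genes) and in the joint list (37.9%). They were also the same in the 7944 strongest peaks of replicate 1 (25.8%) and of replicate 2 (29%). Overlap of at least 1 bp (27.2%), limits of 200 bp (21.7%) and 1000 bp (29.5%) and the outermost start only (23.8%) called them too. With the nearest start only, 3 were left (21.7%). The count inside the gene, 3, became 5 when intervals were used in place of summits (25.9% of coding genes). This adds G9a and Pof, whose peaks reach past their starts. The count became 2, without Kdm4B, in the stronger 3972 peaks (11.1%) and in the 7944 strongest peaks of replicate 2 (18.9%). The whole replicate 2 list of 30000 peaks does hold the Kdm4B summit, at rank 10626. Within 5 kb, the 7944 strongest peaks of replicate 2 gave 5 genes, with egg in place of Kdm4B (57.5%). The stronger 3972 IDR peaks gave 4 (41.2%), and a distance of 10 kb gave 7 (66.6%). The strongest promoter summit of JIL-1 ranked 2104 in the IDR list and 1804 and 1396 in replicates 1 and 2. In replicate 2 this is the 5' UTR summit at 482 bp.

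With the 28 joint summits in place of 15, the word counts were 2 for TATCGATA, 9 for CGATA and 4 for GAGAGAG, from 1, 5 and 1. These are among the values that moved, but more summits were searched, and shares over all joint summits were not computed. With 50 bp windows TATAAA was at 1 of the 15 summits, against 10.4% of all IDR summits in the same window. Silencing cofactors with a promoter summit numbered 4 in the 7944 strongest peaks of replicate 1 (25.8% of coding genes) and 7 in those of replicate 2 (29%). Other methyltransferases numbered 3 in the stronger 3972 IDR peaks (17.7%). The cause was not tested. No paired analysis was possible because the series has 1 group. The unknown depth limits what a missing summit shows, since it may be a site below detection.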
